A study of Mus musculus with 6 samples.

Results

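The naive-state factors described here are 7 transcription factor genes of mouse embryonic stem cells, Klf2, Klf4, Klf5, Tbx3, Tfcp2l1, Zfp42 and Gbx2, out of 19938 genes measured. Each was read from the probesets whose array annotation named that gene alone, and each had 1 such probeset. The cells were E14, an established line of mouse embryonic stem cells, grown in serum with leukemia inhibitory factor (LIF) on primary embryonic fibroblasts whose division had been stopped with mitomycin C. They were exposed for 16 h to 0.5 mM valproic acid (VPA) or to 0.2 mM sodium butyrate (NaBu), or were left untreated as the control. Each condition had 2 Affymetrix arrays, numbered replicate 1 and replicate 2. All 6 samples share the cell line, the medium, the LIF and the feeder layer, so every RNA sample could hold fibroblast RNA beside that of the stem cells. Values are log2 expression, so a difference of 1 is a doubling of the measured signal.

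Naive pluripotency is the state of the cells of the early mouse epiblast, and LIF helps to hold it in culture. LIF signals through its receptor and JAK kinases to the transcription factor STAT3, which raises Klf4, Tfcp2l1 and Gbx2 in mouse embryonic stem cells, while Tbx3 is tied to the PI3K branch of LIF signalling and Klf2 and Klf5 act beside Klf4 on many shared sites. Zfp42, known as Rex1, is a widely used marker of the naive state and a target of Oct4, Sox2 and Nanog. VPA and butyrate are short-chain fatty acids that inhibit class I histone deacetylases. The carbon chain of VPA is branched, and that of butyrate is straight.

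The labelled cell type was checked first. Pou5f1, Nanog, Sox2, Esrrb, Tdgf1, Dppa5a and Utf1, 7 markers of mouse embryonic stem cells, lay between 9.74 and 12.72 on all 6 arrays, above the median of 5.77 over all genes. The 6 defining fibroblast markers Col1a1, Col1a2, Col3a1, Fn1, Thy1 and Pdgfrb read 6.17 to 11.47. Fn1 gave the upper end, at 10.90 to 11.47, and the next highest marker, Col1a1, reached 9.66. RMA, the method behind these values, gives each probeset a level on each array, so the levels alone do not show how much fibroblast RNA a sample held. The labels do not say whether replicates came from separate cultures, and p-values therefore measure only the spread between these samples, which may be technical. The number of arrays limits the precision of every value below.

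Sequence upstream of the start site is shown for Zfp42, Tfcp2l1 and Klf4, a marker of the naive state and a pair of LIF-STAT3 targets, all lower under VPA within both replicate numbers. The windows are the 250 bases before the RefSeq start site on GRCm38.p6, at chr8:43307010-43307259 (minus strand) for Zfp42, chr1:118627695-118627944 (plus strand) for Tfcp2l1 and chr4:55532476-55532725 (minus strand) for Klf4. The RefSeq locus of Tfcp2l1 begins at 118627923, so the last bases of its window lie within that locus. RefSeq windows matched 5 of the 7 genes. Capitals mark matches, on either strand, to the octamer ATGCAAAT bound by Oct4-type factors or to CCNCNCCC, the GC-rich core that Klf and Sp proteins bind, with overlapping matches run together.
Zfp42: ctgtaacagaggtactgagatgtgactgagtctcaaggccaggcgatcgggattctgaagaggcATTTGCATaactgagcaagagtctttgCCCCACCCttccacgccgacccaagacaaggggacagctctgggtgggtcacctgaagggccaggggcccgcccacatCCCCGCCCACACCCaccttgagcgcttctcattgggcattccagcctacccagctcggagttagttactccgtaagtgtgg
Tfcp2l1: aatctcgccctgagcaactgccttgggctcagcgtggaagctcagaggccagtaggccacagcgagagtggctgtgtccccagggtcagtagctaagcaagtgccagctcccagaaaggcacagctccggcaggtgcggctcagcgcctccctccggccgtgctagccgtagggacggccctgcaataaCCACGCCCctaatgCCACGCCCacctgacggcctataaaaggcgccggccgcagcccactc
Klf4: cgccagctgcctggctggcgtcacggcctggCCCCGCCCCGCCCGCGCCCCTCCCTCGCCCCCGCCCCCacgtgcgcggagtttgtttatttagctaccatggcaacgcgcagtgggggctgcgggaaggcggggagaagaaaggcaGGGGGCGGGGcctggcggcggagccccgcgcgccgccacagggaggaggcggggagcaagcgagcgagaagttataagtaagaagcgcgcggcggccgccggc

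The Zfp42 window held 1 octamer and 3 matches to CCNCNCCC. The octamer lies on the strand opposite to the printed one, so the printed strand reads ATTTGCAT, from 186 bases before the start. The octamer was present in 1.6% of the 32851 RefSeq windows of the same length. The Tfcp2l1 window held 2 matches to CCNCNCCC and the Klf4 window 9, a short pattern that 45.9% of all windows hold. Klf2 had 4 and Gbx2 had 1. The STAT pattern TTCNNNGAA, present in 7.02% of windows, had 0 matches in the 5 windows. These windows differed in composition, with 9 CpG dinucleotides and 58.4% G and C for Zfp42, 16 and 65.2% for Tfcp2l1, and 32 and 74.0% for Klf4. A match describes the letters only.

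VPA was compared with the control to ask which naive-state factors differ after exposure to this inhibitor. Tbx3, Tfcp2l1 and Zfp42 stood below the control on both VPA arrays, and Klf4 stood below it within each replicate number. Klf5 stood above it within each number, and Klf2 and Gbx2 differed in sign between the numbers. No member passed the test in limma, at a Benjamini-Hochberg adjusted p under 0.05 over all genes, and neither did any other gene (0%).

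Tbx3, a T-box factor that can sustain self-renewal of mouse embryonic stem cells, read 9.05 and 9.41 on the VPA arrays of replicates 1 and 2, against 9.74 and 9.66 on the control arrays. Both VPA arrays were lower than both controls, and replicate 1 lay farther away. The means were 9.23 ± 0.25 under VPA and 9.70 ± 0.06 in the control (SD, n = 2 each). The VPA minus control difference was -0.69 within replicate 1 and -0.26 within replicate 2. The limma difference was -0.47 (95% interval -0.87 to -0.08), a ratio of VPA to control of 0.721, with an unadjusted p of 0.0254 and an adjusted p of 0.964. Bulk RNA cannot tell fewer cells expressing a gene apart from less of its RNA per cell, here or for the genes below.

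Tfcp2l1, a transcription factor downstream of LIF and STAT3, read 8.64 and 8.97 under VPA, against 9.04 and 9.23 in the control. Again the groups did not overlap, with replicate 1 lowest in both. The means were 8.81 ± 0.23 under VPA and 9.14 ± 0.13 in the control (SD, n = 2 each). The difference was -0.40 within replicate 1 and -0.26 within replicate 2, and limma gave -0.33 (95% interval -0.71 to 0.05, adjusted p = 0.964). Klf4, a reprogramming factor, read 9.07 and 9.38 under VPA, against 9.35 and 9.47 in the control. The VPA array of replicate 2 lay between both controls, so the groups overlapped, although the difference was negative within each number, at -0.29 and -0.09. Its limma difference was -0.19 (95% interval -0.56 to 0.19, adjusted p = 0.969).

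Zfp42 read 10.33 and 10.12 under VPA, against 10.69 and 10.38 in the control. Both VPA arrays were the lower ones, by a margin of less than the spread within the control. The means were 10.23 ± 0.15 under VPA and 10.53 ± 0.22 in the control (SD, n = 2 each). The limma difference was -0.31 (95% interval -0.90 to 0.28, adjusted p = 0.969), with -0.36 within replicate 1 and -0.26 within replicate 2.

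The remaining members did not share a direction with one another. Klf2, a Krüppel-like factor that supports self-renewal beside Klf4 and Klf5, read 9.11 and 9.22 under VPA, against 9.09 and 9.33 in the control. Its groups overlapped, and the interval of the difference ran from -0.43 to 0.35. Klf5 read 10.55 and 10.10 under VPA, against 10.29 and 10.08 in the control, with an interval from -0.35 to 0.63. Klf5 was higher under VPA within both numbers, by 0.26 in replicate 1 and 0.02 in replicate 2. Gbx2, a homeobox gene that LIF and STAT3 raise, read 7.02 and 6.27 under VPA, against 6.72 and 6.56 in the control. For Gbx2 the VPA arrays were the highest and the lowest of all 6, with differences of opposite sign within replicate 1, 0.30, and replicate 2, -0.29.

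**Figure D1:**
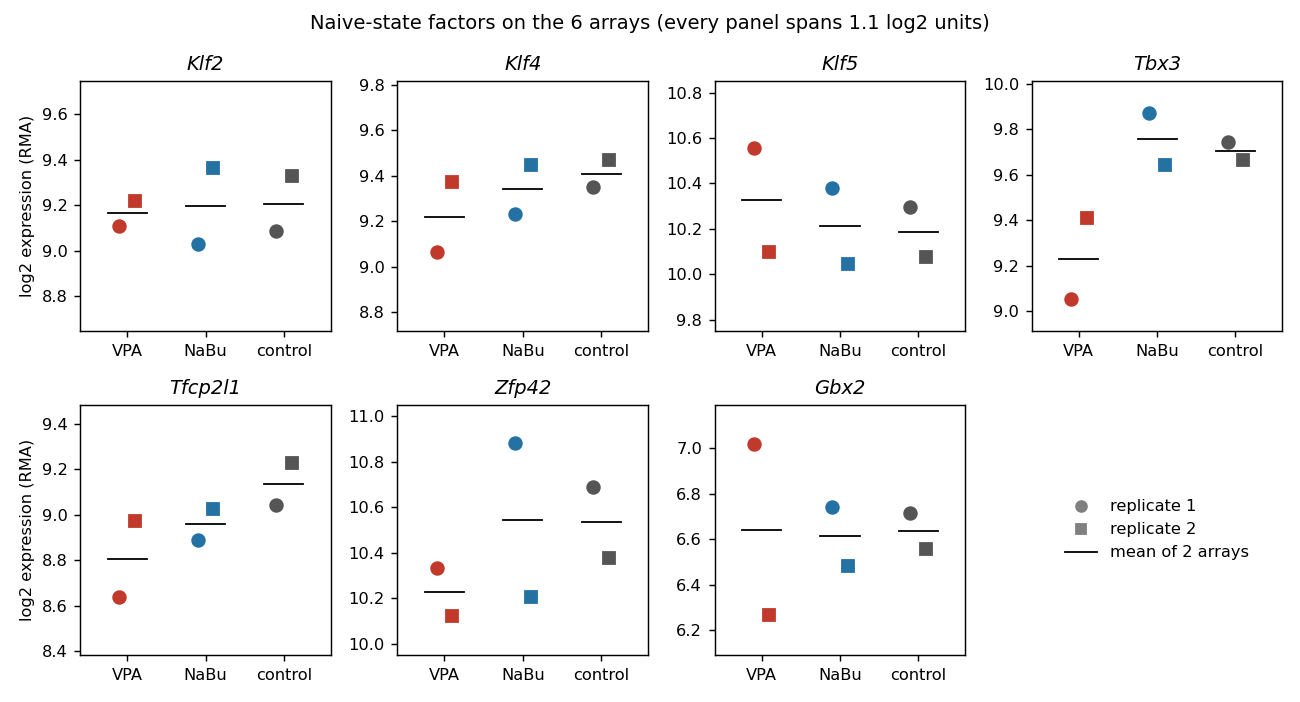
Log2 expression of the 7 naive-state factors on the 6 arrays, 1 panel a gene, with conditions along the horizontal axis, circles for replicate 1, squares for replicate 2 and lines for the mean of 2 arrays. Both VPA points lie below both control points for Tbx3, Tfcp2l1 and Zfp42, and for Gbx2 the VPA points, 7.02 and 6.27, bracket all others.

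Set against all genes, 1 of 7 members (Tbx3) had an unadjusted p under 0.05 for VPA, as did 4.92% of all genes, 547 higher and 434 lower. Both VPA arrays lay below both controls for 3 of 7 members (42.9%), against 15.6% of all genes. VPA was lower within both replicate numbers for 4 of 7 members (57.1%), against 28% of all genes. The median difference of the members was -0.19, beside 0.01 over all genes. The members with a negative difference in both replicate numbers include 2 genes named above as STAT3 targets, Klf4 and Tfcp2l1, but not Gbx2.

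NaBu was compared with the control in the same way, and the fitted differences of the members were small. Some average opposite signs, as for Zfp42, with 0.19 within replicate 1 and -0.17 within replicate 2. The absence of a call does not show that these genes were unchanged. The median difference was -0.01, as against 0.01 over all genes, and the member differences ran from -0.18 to 0.05. None passed the test (0%) and none had an unadjusted p under 0.05, which 1.56% of genes had. Tfcp2l1 was the only member with both NaBu arrays below both controls, 8.89 and 9.03 under NaBu against 9.04 and 9.23 in the control, where 11.2% of all genes met the same condition. Its difference was -0.18 (95% interval -0.56 to 0.20), with -0.15 within replicate 1 and -0.20 within replicate 2. The margin between the nearest NaBu and control arrays was the small gap of 9.03 against 9.04.

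Klf4 and Tfcp2l1 were the 2 members lower under NaBu within both numbers, a direction found in 23.1% of genes. Klf4 read 9.23 and 9.45 under NaBu, against 9.35 and 9.47 in the control, and the 2 groups overlapped. Tbx3 read 9.87 and 9.64 under NaBu, against 9.74 and 9.66 in the control, and the interval of the difference ran from -0.34 to 0.44. Zfp42 read 10.88 and 10.21 under NaBu, against 10.69 and 10.38 in the control. The NaBu arrays of Zfp42 were thus the highest of all 6 and below both controls. Its interval was wide, from -0.58 to 0.60, in this fit without a replicate term. With a term for the replicate number it ran from -0.30 to 0.32.

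Klf2, Klf5 and Gbx2 differed from the control by -0.01, 0.03 and -0.02 under NaBu. Klf2 read 9.03 and 9.36 under NaBu, and Klf5 read 10.38 and 10.05. Gbx2 read 6.74 and 6.48. In these 3 genes the NaBu arrays of replicates 1 and 2 spread farther apart than the control arrays, whose values are given above.

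**Figure D2:**
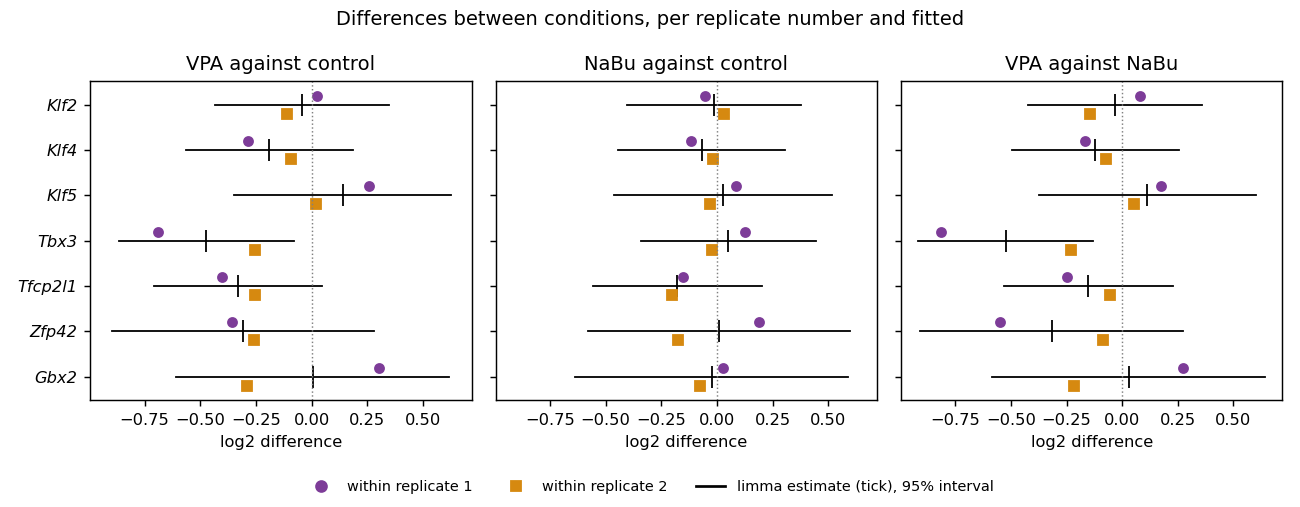
Log2 differences of the 7 genes for VPA against control, NaBu against control and VPA against NaBu, with circles for replicate 1, squares for replicate 2, and a tick and line for the limma estimate and its 95% interval. In this fit, which has no replicate term, the interval leaves out 0 for Tbx3 only, for VPA against control and against NaBu, before adjustment over all genes.

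VPA and NaBu were given at different doses, 0.5 and 0.2 mM, so no matched-dose comparison of the branched and the straight acid can be made, and the differences stand side by side as the arrays gave them. Tbx3 averaged 9.23 ± 0.25 under VPA and 9.76 ± 0.16 under NaBu (SD, n = 2 each), a limma difference of -0.52 (95% interval -0.92 to -0.13, unadjusted p = 0.0167, adjusted p = 0.998). Both VPA arrays of Tbx3 lay below both NaBu arrays, which held for 1 of 7 members and for 14.6% of all genes. An unadjusted p under 0.05 was found for 1 of 7 members and for 3.63% of genes, and an adjusted one for none (0%).

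Zfp42 averaged 10.23 ± 0.15 under VPA and 10.54 ± 0.48 under NaBu (SD, n = 2 each), and its arrays overlapped. VPA lay below NaBu within both numbers for Klf4, Tbx3, Tfcp2l1 and Zfp42 (4 of 7), as it did for 28.6% of all genes. Over the 7 members the median VPA minus NaBu difference was -0.12. For the other members the intervals of VPA minus NaBu ran from -0.42 to 0.36 for Klf2, from -0.50 to 0.25 for Klf4, from -0.38 to 0.60 for Klf5, from -0.53 to 0.23 for Tfcp2l1 and from -0.58 to 0.64 for Gbx2. The absence of a call in these genes does not show that the compounds act alike.

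Replicate 2 was set against replicate 1 because the labels do not say what the numbers mark. Klf2, Klf4 and Tfcp2l1 stood higher in replicate 2 than in replicate 1 in all 3 conditions (23.2% of all genes did), whereas Klf5, Zfp42 and Gbx2 stood lower in all 3 (23.5% of all genes did). Zfp42 read 10.12 under VPA, 10.21 under NaBu and 10.38 in the control in replicate 2, against 10.33, 10.88 and 10.69 in replicate 1. Klf5 read 10.10, 10.05 and 10.08 in replicate 2, against 10.55, 10.38 and 10.29 in replicate 1. For both genes each array of replicate 2 was lower than the array of the same condition in replicate 1.

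A limma model with conditions and replicate number gave Zfp42 a difference of -0.40 for replicate 2 minus replicate 1 (95% interval -0.66 to -0.14, adjusted p = 0.0558) and Klf5 one of -0.34 (95% interval -0.55 to -0.12, adjusted p = 0.0547). Neither passed. Gbx2 had -0.39 (adjusted p = 0.0872), Klf2 0.23, Klf4 0.21 and Tfcp2l1 0.22, all with unadjusted p under 0.05. That threshold was met by 6 of 7 members and by 26.5% of genes. An adjusted p under 0.05 was met by 0 of 7 members and by 11.6% of genes, 1204 higher and 1109 lower in replicate 2. When dim genes, those with a mean below log2 5, were left out before the adjustment, Zfp42 and Klf5 passed, at 0.0359 and 0.0330. In that fit 2715 of the 11809 genes kept also passed. The count of genes was 716 without either NaBu array and 1370 without either control array, and Zfp42 passed, at 0.0324, without either VPA array.

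Tbx3 was the exception. It was higher in replicate 2 under VPA, by 0.35, and lower under NaBu, by -0.23, and in the control, by -0.08. Its replicate term was 0.02 (95% interval -0.27 to 0.30). The VPA array of replicate 1, at 9.05, stood lowest of the 6 arrays for this gene.

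Fibroblast markers moved with the replicate number. Of 31 measured feeder genes, 15 passed higher and 0 lower in replicate 2, with a median difference of 0.40 beside 0.01 over all genes. Col3a1, a collagen chain, rose by 1.09 in replicate 2 (adjusted p = 0.00115). The mean level of the list was 7.79 under VPA, 7.80 under NaBu and 7.58 in the control in replicate 2, against 6.94, 7.14 and 7.12 in replicate 1. Whether fibroblast RNA has a part in the differences of the 7 members between replicate numbers was not tested.

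**Figure D3:**
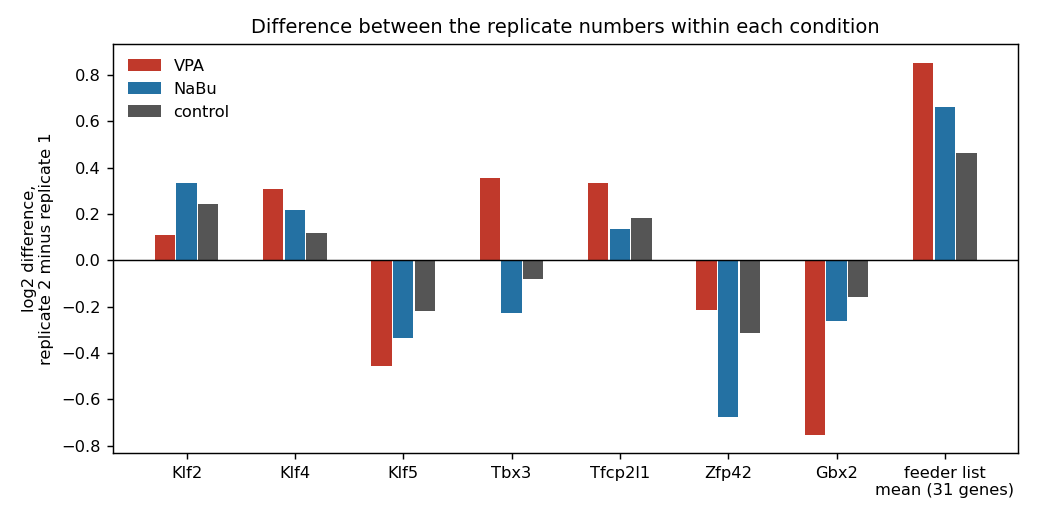
Replicate 2 minus replicate 1 in log2 units within VPA, NaBu and control for each naive-state factor and for the mean of 31 feeder fibroblast genes, as bars from 0. Klf2, Klf4 and Tfcp2l1 are above 0 in all 3 conditions, Klf5, Zfp42 and Gbx2 below 0, and the feeder mean is above 0, at 0.85 for VPA, 0.66 for NaBu and 0.46 for the control.

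The same feeder list gave VPA minus control means of -0.18 within replicate 1 and 0.21 within replicate 2, so its direction was not shared by both numbers. The naive-state mean was -0.16 within replicate 1 and -0.18 within replicate 2. Under NaBu the feeder genes averaged 0.03 above the control within replicate 1 and 0.23 within replicate 2, with 25 of 31 genes higher and none passing. The part of fibroblast RNA in the compound differences was not tested.

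Genes that work with the 7 factors were set beside them by role, and no gene of any list passed the test for VPA, NaBu or VPA against NaBu. The lists were chosen with earlier results of these data in view, so their directions are not independent evidence. Of 24 other genes of the pluripotency network, 23 lay below the control under VPA, 20 of the list within both replicate numbers and 6 at an unadjusted p under 0.05, with a median difference of -0.37, beside -0.19 for the 7 members. Pou5f1, which encodes Oct4, read 11.12 and 11.13 under VPA, against 11.90 and 11.63 in the control, a difference of -0.64 (95% interval -0.97 to -0.31, adjusted p = 0.964). Its VPA arrays were nearly equal and both stood below both controls. Prdm14, a repressor that guards the naive state, differed by -1.25, and Utf1, a chromatin factor of stem cells, by -0.59. Under NaBu the list's median was -0.05, with 18 of 24 genes lower, beside 9109 of 19938 over all genes. Only 7 of the 24 were lower within both replicate numbers, beside 23.1% of all genes. Tcl1, an Akt coactivator, had -0.29 under NaBu.

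Of 19 genes of LIF and STAT3 signalling, 10 lay above the control and 9 below it under VPA, with a median of 0.04. The list mixes components of the pathway, such as Jak1, with genes it induces, such as Socs3. Socs3, the STAT3-induced inhibitor of LIF signalling, read 8.79 and 8.65 under VPA, against 8.05 and 8.24 in the control. The groups did not overlap, and the difference was 0.57 (95% interval 0.15 to 0.99, adjusted p = 0.964). Jak1, the receptor's kinase, had 0.47, and Junb, an AP-1 factor, had 0.30. Under NaBu 12 lay above and 7 below, with a median of 0.02 and Socs1 at -0.14.

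Of 20 genes of FGF-ERK and Wnt signalling, 12 were above and 8 below the control under VPA, with a median of 0.06. Egr1, an immediate early gene of ERK, read 7.86 and 8.17 under VPA, against 6.81 and 7.48 in the control. Both VPA arrays were the higher ones, and the difference was 0.87 (95% interval 0.17 to 1.58, adjusted p = 0.964). Spry4 and Dusp6, feedback inhibitors of the pathway, had 0.53 and 0.33. Under NaBu, 13 of 20 were above, with a median of 0.09, and Spry4 had 0.38 and Fgf8 -0.25.

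The other members of the Klf family showed no common direction under VPA, with 6 above, 8 below and a median of -0.05 over 14 genes. Klf17 had 0.80, with 1.34 within replicate 1 and 0.25 within replicate 2, from levels of 5.46 and 4.36 under VPA and 4.12 and 4.11 in the control, below the median level of all genes. Klf8 had -0.42 and Klf13 -0.32. Among 20 relatives of Tbx3, Tfcp2l1, Zfp42 and Gbx2, the median was 0.05, with 13 above and 7 below. Tfcp2, the relative of Tfcp2l1, had 0.26 under VPA and 0.21 under NaBu, while Tbx2 had 0.31 and Tbr1 -0.17 under VPA. Under NaBu the median was -0.01 for the Klf relatives, with Klf1 at -0.19, and 0.06 for the other relatives, with Tbx19 at 0.27.

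Among 20 genes of the primed state, which the epiblast enters after the naive one, 14 lay below the control under VPA, with a median of -0.05. Over all genes 9370 of 19938 lay below. Within both replicate numbers 8 of the 20 were lower and 3 higher, where 28% of all genes were lower. Otx2, a homeobox factor of the primed state, read 8.46 and 8.33 under VPA, against 9.19 and 8.82 in the control, a difference of -0.61 (unadjusted p = 0.0214, adjusted p = 0.964). Cldn6, a tight junction protein, had 0.85, with 1.35 within replicate 1 and 0.35 within replicate 2. Lefty2, a Nodal antagonist, had -1.02, with -1.84 within replicate 1 and -0.20 within replicate 2. Both differences were larger within replicate 1. Under NaBu the list's median was -0.03, Dnmt3a, a DNA methyltransferase, had 0.14 and Sfrp2, a Wnt antagonist, had -0.13.

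**Figure D4:**
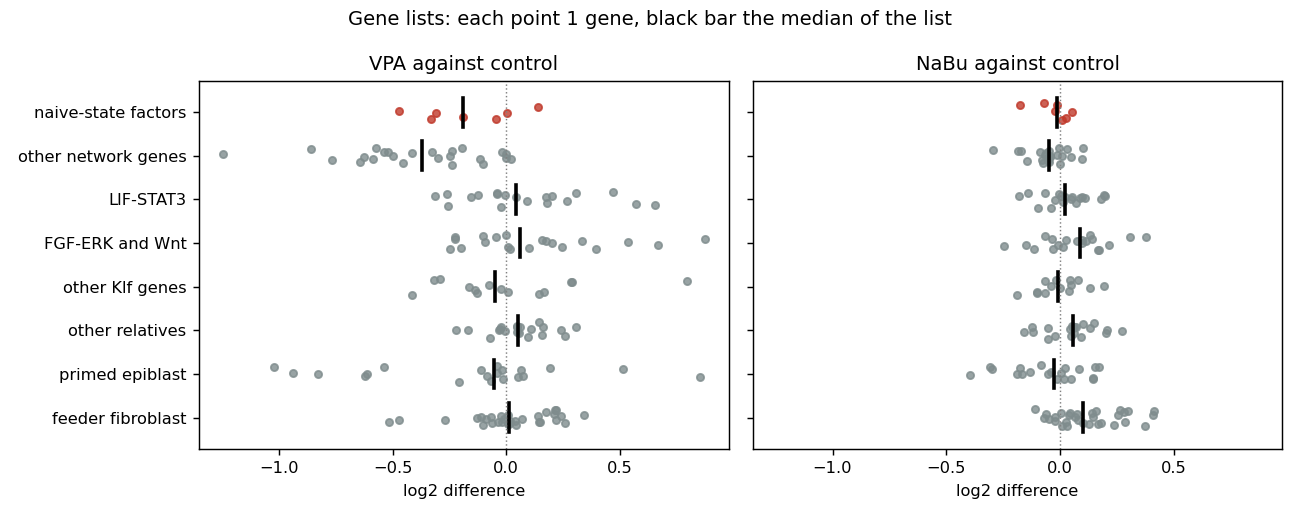
Log2 differences from the control for each gene (points) and the median of each list (bars), for VPA on the left and NaBu on the right, with the naive-state factors in red. The other network genes have the lowest median under VPA, -0.37, and the medians of all lists under NaBu lie between -0.05 and 0.10.

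Between replicate numbers, 8 of the 24 network genes passed lower in replicate 2 and 0 higher. Nanog fell by 0.47 (adjusted p = 0.0269) and Tcl1 by 0.43 (adjusted p = 0.0338) in replicate 2. Over all genes 11.6% passed in either direction. Of the 20 FGF-ERK and Wnt genes, 5 passed, all higher, with Egr1 at 0.53. Of the 14 Klf relatives, 4 passed higher and 1 lower, Klf8 at -0.37. Of the 19 LIF and STAT3 genes, 3 passed higher and 1 lower, and 2 passed lower in each of the lists of 20 other relatives and 20 primed genes.

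The spread of a member over the 6 arrays ran from 0.33 for Klf2 to 0.82 for Tbx3, with a median of 0.59, against 0.43 for genes at or above the median level. The genes with the most similar profiles were measured by the root mean square difference of log2 values about each gene's own mean over the 6 arrays, among 9705 genes. They were Anln and Erp29 for Klf2, Npepl1 and Txndc11 for Klf4, Mtfr2 and Ppip5k2 for Klf5, Cavin4 and Zfp740 for Tbx3, Fbxo6 and Fnbp4 for Tfcp2l1, Pias2 and Uqcc3 for Zfp42, and Snf8 and Zfp329 for Gbx2. The distances of the nearest of these ran from 0.0144 for Klf4 and Npepl1 to 0.0452 for Gbx2 and Snf8. Among the members themselves, Klf4 and Tfcp2l1 were closest, at 0.0677, and Zfp42 lay no nearer than 0.237 to any other member. Among all genes compared, Tfcp2l1 ranked only 125 in nearness to Klf4, and Klf4 ranked 23 in nearness to Tfcp2l1. The distance is not scaled by a gene's own root mean square about its mean, 0.138 for Klf4 and 0.268 for Zfp42. All distances share the same 6 arrays.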

How the data were processed

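The values the authors deposited are log2 expression per probeset. The submitters' processing notes name RMA and Affymetrix Expression Console 1.1. RMA puts the arrays on 1 distribution, so a shift shared by most genes would not show. The table held 35556 probesets. The platform annotation listed 23410 of them, 21789 with 1 symbol, and the brightest probeset by mean over 6 arrays stood for each of 19938 genes. The sources used here give no build for the array values, and only the RefSeq promoter windows carry coordinates. Differences between groups of 2 arrays came from limma 3.58.1 (R 4.3.3), with 1 mean per group over 6 arrays, with Benjamini-Hochberg adjustment over all genes at 0.05 and 95% intervals. An exact permutation test of 2 against 2 arrays cannot go below 0.333, so none was used. The replicate difference came from limma with condition and replicate number. The models were run on simulated data with noise drawn independently for each array. For the comparison of conditions the simulated replicate numbers did not differ, unlike those of these arrays, so that run does not cover such a difference. The named genes were the 7 members, the 3 genes of each list with the largest moderated statistic for VPA and the 2 for NaBu, the marker genes and the 2 genes most similar to each member. Other list genes are counted only. The members, lists and rules were chosen with earlier results of these data known. Alternatives changed the block, the arrays, the centring, the filter on dim genes, the probeset rule and the variance trend.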

Additional observations from a re-analysis of the deposited data

How the results depend on the processing

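With the replicate block the Tbx3 difference for VPA stayed at -0.47 (adjusted p = 0.267) and limma called 0 genes in each of the 3 comparisons of conditions, so no call changed. An unadjusted p under 0.05 was then found for 2 members for VPA against control, Tbx3 and Tfcp2l1 (0.018, interval -0.59 to -0.07), among 13.2% of genes, and for 2 for VPA against NaBu, Tbx3 and Zfp42 (0.048), among 10.8%. The labels do not pair the numbers, and deviations of same-numbered arrays from their group means correlated across genes at 0.56 for VPA and control, 0.69 for NaBu and control and 0.57 for VPA and NaBu. Of 189 values of the members under alternatives that kept all arrays, 5 changed sign. Only median centring and quantile normalization could change a sign. The block, the filters on dim genes, the probeset rule and the variance trend leave each member's difference as it was. Gbx2 for VPA against control was -0.031 with median centring and -0.019 with quantile normalization, Gbx2 for VPA against NaBu was -0.0063 with median centring, Klf2 for VPA against NaBu was 0.013 with quantile normalization, and the replicate term of Tbx3 was -0.024 with median centring. The members' median for VPA against control was -0.23 with median centring and -0.16 with quantile normalization. Between replicate numbers, median centring called 2 members and 2567 of 19938 genes, and an intensity trend called 2 members and 2980 of 19938 genes. Genes at or above log2 5 gave 2 members called among 2715 of 11809 genes. Genes at or above the median level gave 3 members called among 2644 of 9969 genes. Of 168 values without 1 array, 26 changed sign, and these fits let in part of the difference between replicate numbers. The 168 include values that could not change, since leaving out an array of the condition not compared keeps the difference as it was. For the replicate term, leaving out either array of a condition gives the same value. For VPA against control the ranges without 1 array were -0.20 to -0.13 for the members' median, -0.17 to 0.079 for Klf2, -0.090 to 0.37 for Klf5 and -0.37 to 0.38 for Gbx2. For NaBu against control they were -0.11 to 0.11 for the median, -0.18 to 0.16 for Klf2, -0.18 to 0.040 for Klf4, -0.14 to 0.19 for Klf5, -0.063 to 0.17 for Tbx3, -0.33 to 0.35 for Zfp42 and -0.15 to 0.11 for Gbx2. For VPA against NaBu they were -0.21 to -0.085 for the median, -0.20 to 0.13 for Klf2, -0.28 to 0.033 for Klf4, -0.12 to 0.34 for Klf5, -0.32 to 0.014 for Tfcp2l1, -0.66 to 0.021 for Zfp42 and -0.35 to 0.41 for Gbx2. Between replicate numbers they were 716 to 2434 genes called, 0 to 1 members called, -0.15 to 0.14 for the median and -0.15 to 0.14 for Tbx3. Under VPA against control, Klf4 ran from -0.34 to -0.035, Tbx3 from -0.65 to -0.30, Tfcp2l1 from -0.50 to -0.16 and Zfp42 from -0.46 to -0.15, with no change of sign. Leaving out VPA replicate 1 gave the smallest difference for Klf4, Tbx3 and Tfcp2l1, and leaving out control replicate 1 gave it for Zfp42. The cause of these changes was not tested.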
